A study of Mus musculus with 4 samples.

Results

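Telomeres, the repeat-capped ends of chromosomes, are covered by shelterin, and 9 genes of this machinery were followed here in single mouse embryonic stem (ES) cells. The set, 9 of 46078 gene rows in the count tables, holds the shelterin genes Terf1, Terf2, Tinf2, Acd, Terf2ip, Pot1a and Pot1b, the telomerase reverse transcriptase gene Tert, and Rif1. The genes were matched by symbol to the Ensembl identifiers of both count tables, and all 9 were found. The set was chosen by the level of Rif1 in small N2B27 cells, where its mean was above that of ungated N2B27 cells. Every comparison of small with ungated N2B27 cells therefore stands below as a description.

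In shelterin, TRF1 (gene Terf1) and TRF2 (gene Terf2) bind the double-stranded telomeric repeat, and TIN2 (gene Tinf2) bridges them. TPP1 (gene Acd) joins TIN2 to the POT1 proteins on the single-stranded overhang and recruits telomerase, while RAP1 (gene Terf2ip) is carried by TRF2. RIF1, named after a yeast protein that binds Rap1 at telomeres, is known in mammals for the timing of DNA replication and for guarding broken DNA ends together with 53BP1, and mouse ES cells are known to express it strongly.

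The cells were E14 wild-type mouse ES cells grown in 2i, the N2B27 base medium with inhibitors of MEK and GSK-3 that holds naive pluripotency. The study's culture medium also held leukemia inhibitory factor (LIF), which the sample labels do not list. They were sorted on forward and side scatter into a small gate, set for cells leaving mitosis and in G1, or left ungated, and then spent 6 h either in 2i or in N2B27 without these additions. The 4 samples, small and ungated cells in 2i and small and ungated cells in N2B27, each held 24 cells, and full-length cDNA of every cell was sequenced without molecular identifiers. After the filter on cells, 12 of 24 small 2i cells, 22 of 24 ungated 2i cells, 20 of 24 small N2B27 cells and 21 of 24 ungated N2B27 cells were kept. Each medium was 1 plate on 1 sequencing lane, so medium and lane cannot be told apart, and the gates sat on different index rows of each plate. With 1 sample per group no p-value was computed, and an SD below is a spread over cells of that sample.

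Kept cells had between 1364155 and 4844170 counts on genes. The small cells stood apart in the share of counts taken by ERCC spike-ins, RNAs of known sequence added to each lysate. This share had a median of 2.45% in small against 1.14% in ungated N2B27 cells, and of 3.47% in small against 1.28% in ungated 2i cells. In small 2i cells it ran from 0.0673% to 40.9%, and in small N2B27 cells from 0.799% to 6.03%, while it stayed at or below 2.42% in ungated 2i cells and 1.9% in ungated N2B27 cells. The phases called by cyclone, a classifier of cell cycle phase from gene pairs, differed as well, with 6 G1, 11 S and 3 G2M cells among the small N2B27 cells and 2, 4 and 15 among the ungated ones. Small 2i cells were 6 G1, 5 S and 1 G2M, and ungated 2i cells 7 S and 15 G2M. All 6 ES cell markers had counts in every group, with a median summed level of 1882 to 2545 CPM (counts scaled to a fixed total per cell). The lowest single cells had 10.3 CPM in small 2i, 290.4 in ungated 2i, 129.9 in small N2B27 and 920.0 in ungated N2B27 cells. The 2-cell-like and fibroblast markers never summed above 0.75 and 0.375 CPM. Primitive endoderm and trophoblast markers had a median of 0 CPM in every group but reached 92.8 and 207 CPM in single small N2B27 cells, 214 and 161 in ungated N2B27 cells, 1.27 and 123 in small 2i cells and 55.1 and 116 in ungated 2i cells.

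Levels of different genes were compared per length, as RPKM (read counts per kilobase of exon, scaled by each cell's total on genes), averaged over the 75 kept cells. Terf1 was the highest at 71.3 RPKM, with a count in 75 of 75 cells and group means from 61.6 to 80 RPKM, a range that met no other member's. Rif1 (26.7 RPKM), Acd (20.1 RPKM) and Tinf2 (15.2 RPKM) followed, and their group means overlapped, at 15.5 to 43.7, 8.47 to 26.9 and 7.84 to 17.7 RPKM. Terf2ip at 8.64 and Pot1a at 6.59 RPKM came next and overlapped each other too. Terf2 at 1.52 and Pot1b at 0.513 RPKM were low, with counts in 27 and 6 of 75 cells, and Tert was last at 0.0147 RPKM, with a count in 3 of 75. The pair of genes whose products bind double-stranded repeats thus lay far apart, Terf1 at the top and Terf2 with a count in 36% of cells.

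**Figure D1:**
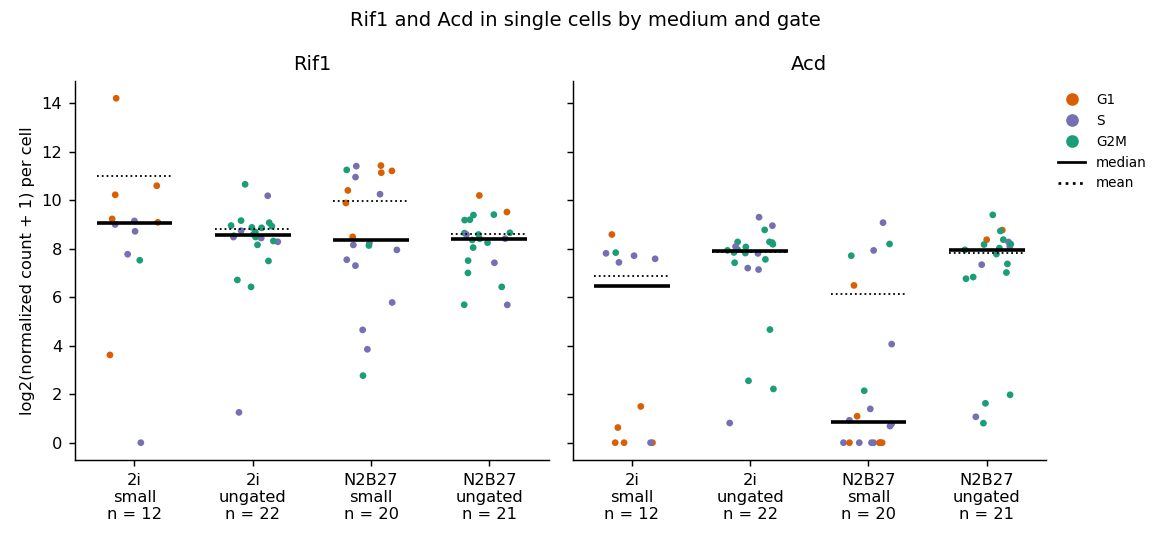
Rif1 and Acd in every kept cell, as log2 of the normalized count plus 1 (vertical axis) for the 4 groups of medium and gate (horizontal axis). Points are cells coloured by cyclone phase, solid lines medians and dotted lines log2 of the mean plus 1. Small N2B27 cells reach 2755 normalized counts of Rif1 against 1171 in ungated cells, while their median of Acd is 0.804 against 247.

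Rif1 (ENSMUSG00000036202; chr2:52072832-52122383, plus strand, GRCm38) averaged higher among small N2B27 cells than among ungated ones, and the gap came from a subset of the small cells. The mean was 996 ± 1033 (SD, 20 cells) normalized counts in small cells and 391 ± 272 (SD, 21 cells) in ungated cells. Small cells ran from 5.8 through a median of 329 to 2755, and ungated cells from 50.4 through a median of 340.4 to 1171. The medians were thus close and the groups overlapped, but 8 of 20 small cells lay above the highest ungated cell, at 1215 to 2755. The log2 ratio of the means was 1.35 (2.54-fold), above 92.2% of the 8730 genes that averaged 20 or more normalized counts over the groups. A small cell held the higher value in 56.7% of all pairs of a small and an ungated cell.

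The small N2B27 cells with much Rif1 lay among those with a large spike-in share, which also included cells with little Rif1. Of the 20, 14 had a spike-in share above the highest of the ungated cells, and these held a median of 1284 and a mean of 1364 normalized counts of Rif1, from 13.4 to 2755. The other 6, within the range of the ungated cells, held a mean of 137 and ran from 5.8 to 300.3. Against the ungated cells these 6 gave a log2 ratio of -1.51, the opposite sign to that of all 20 cells, in a comparison added after the values were seen. Over the 41 N2B27 cells, which share a plate and lane, the Spearman correlation of Rif1 with the spike-in share was 0.47 and with the number of genes detected -0.45, while with the total count it was -0.11. Over the 34 2i cells these correlations were -0.01, -0.08 and -0.08. Scaled by the spike-ins instead of the genes, the log2 ratio of Rif1 was 0.14 where the median of all genes moved from -0.12 to -0.82, and 3 rather than 8 small cells lay above the highest ungated cell. The part of the spike-in share in the Rif1 difference was not tested.

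Rif1 also differed by called phase, and the phases were unevenly spread over the gates. In small N2B27 cells the mean was 1671 normalized counts in 6 G1 cells, 652 in 11 S cells and 906 in 3 G2M cells. In ungated N2B27 cells it was 950.3 in 2 G1 cells, 236 in 4 S cells and 358 in 15 G2M cells, so G1 cells had the highest mean in both gates. G1 cells also had the highest median spike-in share. It was 4.93% in G1, 2.36% in S and 1.31% in G2M cells of the small gate, and 1.68%, 1.07% and 1.14% in the ungated gate. The parts of phase and spike-in share were not tested. Within S cells alone the log2 ratio of the means was 1.46, from 11 and 4 cells, but the medians were 246 in small and 255 in ungated cells. By mean, both index rows of the small gate, at 734 and 1315 normalized counts, lay above both rows of the ungated gate, at 458 and 318. By median they did not, at 279 and 945 in the small rows and 399 and 315 in the ungated rows.

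In 2i, the mean of Rif1 was again higher in small cells, and in normalized counts 1 cell set it. Small 2i cells ran from 0 through a median of 527 to 18865 normalized counts, with a mean of 2055 ± 5313 (SD, 12 cells), and ungated 2i cells from 1.38 through 376 to 1612, with a mean of 442 ± 346 (SD, 22 cells). The highest small cell, whose spike-in share was 40.9%, held 76.5% of the group's normalized counts. No small 2i cell held more than 23.1% of the group's counts before scaling, and its size factors ran from 0.133 through a median of 1.53 to 2.6. The log2 ratio was 2.21 with the highest cell and 0.25 without it. With all 12 cells it was 0.93 in CPM, 0.99 in pooled CPM and 1.43 with scran size factors. The 4 small 2i cells within the spike-in range of the ungated ones had a mean of 377, for a log2 ratio of -0.23. Between media the log2 ratio of Rif1 in small cells, N2B27 over 2i, was -1.04 with that cell and 0.92 without it, and in ungated cells it was -0.18. The ratio between ungated samples was 0.87 with no filter on cells and -0.43 with spike-in scaling.

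**Figure D2:**
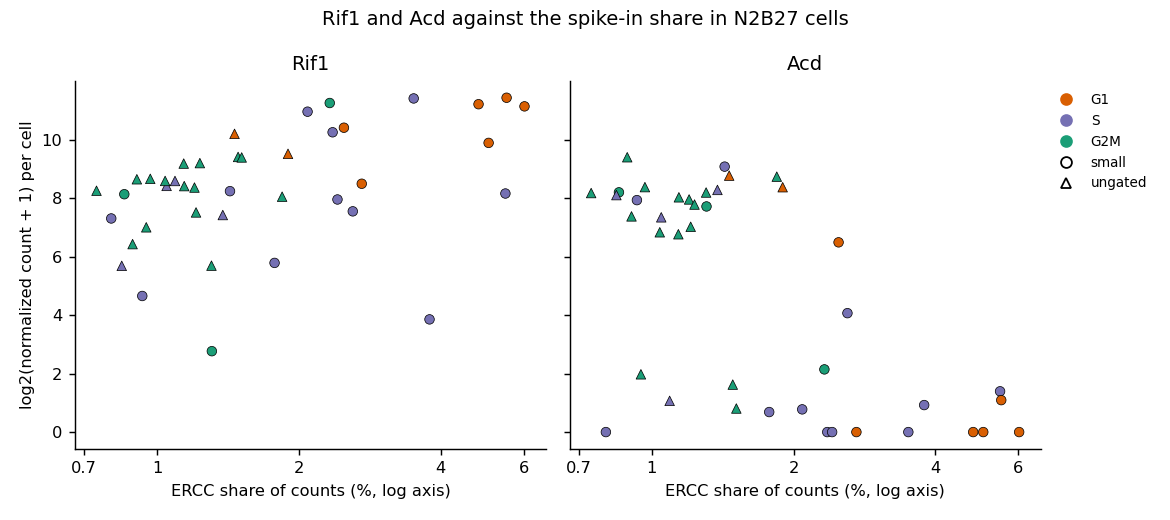
Rif1 and Acd in the 41 N2B27 cells as log2 of the normalized count plus 1 (vertical axis) against the ERCC share of each cell's counts in percent (horizontal axis, log scale). Circles are small and triangles ungated cells, coloured by cyclone phase. Among the 14 small cells to the right of all ungated ones, Rif1 has a median of 1284 and Acd of 0.356 normalized counts.

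Acd (ENSMUSG00000038000; chr8:105695860-105701102, minus strand, GRCm38), the gene of TPP1, went the other way in the same cells. Small N2B27 cells had a mean of 69.7 ± 143 (SD, 20 cells) normalized counts, from 0 through a median of 0.804 to 538, and ungated N2B27 cells 227 ± 168 (SD, 21 cells), from 0.748 through 247 to 672. Most small cells lay near 0 and most ungated cells above 100, although the ranges overlapped. The log2 ratio was -1.69 (3.22-fold lower), and a small cell held the higher value in 16.9% of pairs.

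A count of Acd was found in 12 of 20 small N2B27 cells (60%, exact 95% interval 36.1 to 80.9%) and in 21 of 21 ungated ones (83.9 to 100%). With every cell thinned to 1364155 counts, these shares were 9 of 20 (23.1 to 68.5%) and 20 of 21 (76.2 to 99.9%). These intervals are over cells of 1 sample each and cover neither sorting nor library preparation. Of the 12 small cells with a count, 6 had no more than 10 counts. The log2 ratio was at or below -1 in each of the 14 alternative settings planned, from -4.19 to -1.34. Among these, the settings that leave out a small 2i cell could not change it. With spike-in scaling it was -1.73, where the median of all genes was -0.82 and Acd relative to it was -0.91, inside 2-fold.

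The low values of Acd lay mostly in the small cells rich in spike-ins. None of the 14 small N2B27 cells beyond the ungated spike-in range had over 100 normalized counts of Acd, the highest being 88.6. In the 6 small cells within that range, 4 were over 100, the mean was 214, and the log2 ratio against the ungated cells was -0.08. Over the 41 N2B27 cells, Acd had a Spearman correlation of -0.55 with the spike-in share and 0.53 with the number of genes detected. The 8 small cells with the most Rif1 had between 0 and 88.6 normalized counts of Acd, with a median of 0.356 and a mean of 11.7. The other 12 ran from 0 to 538, with a median of 1.26 and a mean of 108, so both medians were near 0. Over all N2B27 cells the correlation of Acd with Rif1 was -0.33, against -0.04 over the 2i cells. How far the spike-in share accounts for these values was not tested.

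On the 2i plate, Acd was also lower in small cells on average, by less than 2-fold. Small 2i cells ran from 0 through 86.9 to 383 normalized counts, with a mean of 117 ± 132 (SD, 12 cells), and ungated 2i cells from 0.755 through 236 to 629, with a mean of 234 ± 156 (SD, 22 cells). All 22 ungated cells (84.6 to 100%) had a count, as did 8 of the 12 small ones (34.9 to 90.1%). The log2 ratio was -0.99, just inside the 2-fold limit, and 0.73 with spike-in scaling, where the median of all genes was 0.78. Ungated cells of the 2 media were close, at 227 in N2B27 and 234 in 2i.

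Acd and Tinf2 share exonic bases with genes on the opposite strand, and the libraries do not record strand. Of the exon length of Acd, 33.3% overlaps Carmil2, which had a count in 4 ungated and 0 small cells. Tinf2 (ENSMUSG00000007589; chr14:55674689-55681820, minus strand) overlaps Gmpr2 over 31.2% of its exon length, and Gmpr2 had 91.5 normalized counts in small and 237 in ungated N2B27 cells. Fragments from the shared bases cannot be told apart between the genes of each pair. HTSeq sets ambiguous fragments apart, here 6.77% of all counts, and gives them to no gene. RPKM were taken over the full exon length, so those of Acd and Tinf2 may be too low. The order of Rif1, Acd and Tinf2 by RPKM is therefore not settled.

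Tinf2, whose product holds the complex together, was over 2-fold lower in small than ungated 2i cells, while in N2B27 the means were close. The difference between the media was not tested. In N2B27 it ran from 0 through 12.6 to 903 normalized counts in small cells and from 0 through 157 to 517 in ungated cells. The means were 196 ± 276 (SD, 20 cells) and 184 ± 168 (SD, 21 cells), for a log2 ratio of 0.09, so the small cells had the lower median and a slightly higher mean. In 2i the means were 85 ± 135 (SD, 12 cells) in small and 189.8 ± 144 (SD, 22 cells) in ungated cells, with medians of 4.43 and 208 and a log2 ratio of -1.15. That ratio was 0.76 with spike-in scaling, where the median of all genes was 0.78. It was -0.07 in the small cells within the spike-in range of the ungated ones. Between media, Tinf2 in small cells was higher in N2B27 by a log2 ratio of 1.20, and in ungated cells the ratio was -0.04.

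**Figure D3:**
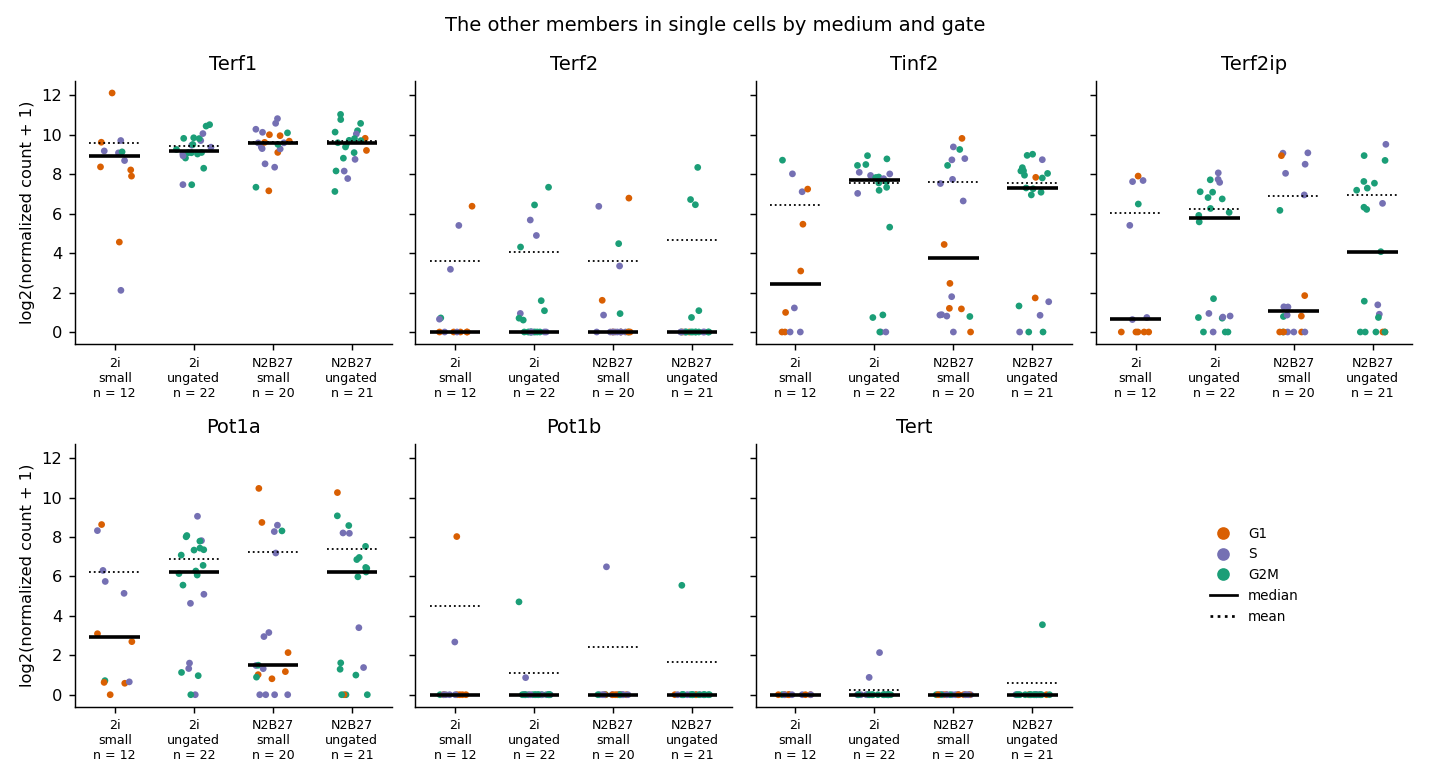
The other 7 members in every kept cell, as log2 of the normalized count plus 1 (vertical axis) for the 4 groups (horizontal axis). Points are cells coloured by cyclone phase, solid lines medians and dotted lines log2 of the mean plus 1. Terf1 is present in 75 of 75 cells, Tinf2, Terf2ip and Pot1a are near 0 in part of each group, and Pot1b and Tert are 0 in most cells.

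Terf1 (ENSMUSG00000025925; chr1:15805646-15844052, plus strand), the gene of TRF1, was present in every cell and had similar means in both gates of N2B27. In N2B27 it ran from 142 through 772 to 1809 normalized counts in small cells and from 139 through 775 to 2099 in ungated cells. The means were 808 ± 425 (SD, 20 cells) and 826 ± 507 (SD, 21 cells), a log2 ratio of -0.03, and the 2 groups overlapped almost whole. In 2i the small cells ran from 3.33 through 478 to 4458 and the ungated cells from 176 through 580.1 to 1463, with a log2 ratio of 0.15. In the small group 1 cell held 49.1% of the normalized counts. The ratio was -0.62 without the highest cells, -1.01 as a mean of log2 values and 1.09 with poscounts size factors. The median of all genes was then -0.85, -1.36 and 0.27. Relative to these medians Terf1 was 0.23, 0.35 and 0.82, but it was -0.23 with spike-in scaling and -0.11 in S cells. Between media the log2 ratio was 0.10 in small and 0.28 in ungated cells. The 8 small N2B27 cells with the most Rif1 had a median of 741 normalized counts of Terf1, and the other 12 had 772. These medians of Terf1 were thus close.

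Terf2 (ENSMUSG00000031921; chr8:107069400-107096547, minus strand), the gene of TRF2, was found in few cells. On the N2B27 plate a count was seen in 5 of the 21 ungated (8.22 to 47.2%) and 7 of the 20 small cells (15.4 to 59.2%), and on the 2i plate in 10 of the 22 ungated (24.4 to 67.8%) and 5 of the 12 small cells (15.2 to 72.3%). With 1 sample per group these shares describe the sampled cells. The means of 11.3 in small and 24.6 in ungated N2B27 cells gave a log2 ratio of -1.06, but 1 ungated cell held 62.7% of that group's normalized counts and leaving out the highest cell of each group gave -0.58. Among S cells the ratio turned to 3.23, but there 0 of 4 ungated and 3 of 11 small cells had a count, the highest at 81.9.

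Terf2ip (ENSMUSG00000033430; chr8:112011398-112020528, plus strand), the gene of RAP1, had its larger differences between media. Means were 119.9 ± 199.7 (SD, 20 cells) in small and 123 ± 196 (SD, 21 cells) in ungated N2B27 cells, against 64.3 ± 94.2 (SD, 12 cells) in small and 74 ± 85.7 (SD, 22 cells) in ungated 2i cells. The log2 ratio of N2B27 over 2i was 0.89 in small and 0.73 in ungated cells, both under 2-fold, and -0.04 and -0.20 between gates in N2B27 and 2i. The medians did not follow the means, at 1.11 in small N2B27 cells against 0.607 in small 2i cells, and at 15.8 in ungated N2B27 cells against 53.2 in ungated 2i cells. The effect of the medium and that of the plate cannot be told apart here.

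Pot1a and Pot1b are the mouse pair of POT1 genes, and their sequences are shown because reads of 1 could be counted for the other. In the GENCODE M21 transcripts, both coding sequences are 1920 bases long and identical at 79% of 1916 aligned positions. The longest identical run is 41 bases, and none of the 1871 runs of 50 bases in Pot1a occurs in Pot1b. The most alike 60 bases, coding positions 463 to 522 of each, are printed with the 2 bases that differ in capitals.
Pot1a: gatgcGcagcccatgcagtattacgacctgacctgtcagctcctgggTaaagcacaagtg
Pot1b: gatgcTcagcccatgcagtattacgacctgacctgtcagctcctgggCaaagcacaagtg

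Pot1a (ENSMUSG00000029676; chr6:25743737-25809246, minus strand) was counted in 64 of 75 cells, and Pot1b (ENSMUSG00000024174; chr17:55651951-55712628, minus strand) in 6. In N2B27, Pot1a ran from 0 through 1.81 to 1411 normalized counts in small cells and from 0 through 73.7 to 1218 in ungated cells, with means of 151 ± 331 (SD, 20 cells) and 165 ± 283 (SD, 21 cells). The means were near each other, a log2 ratio of -0.13, while the small cells had the lower median, as for Tinf2 and Terf2ip. In 2i, means were 74.5 ± 135 (SD, 12 cells) in small and 115 ± 129 (SD, 22 cells) in ungated cells, a log2 ratio of -0.63. Over media, the log2 ratio of N2B27 over 2i was 1.01 in small cells, where the highest N2B27 cell held 46.7% of the normalized counts and leaving out the highest cells gave 0.88, and 0.51 in ungated cells. The medians in small cells went the other way, at 1.81 in N2B27 and 6.5 in 2i, and the N2B27 cell was the higher in 50% of cell pairs.

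For Pot1b, detection came down to 2 of 12 small 2i cells, 2 of 22 ungated 2i cells and 1 cell in each N2B27 group. The highest cell held 259 normalized counts in small 2i, 25.1 in ungated 2i, 88.6 in small N2B27 and 45.8 in ungated N2B27 cells. Single cells therefore made its log2 ratios of 3.40 between gates in 2i and -2.08 between media in small cells, and without the highest cells these were 0.52 and -0.57.

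Tert (ENSMUSG00000021611; chr13:73626911-73649843, plus strand), the catalytic subunit of telomerase, was at the edge of detection. The ungated N2B27 group held 13 counts, all in 1 cell, the ungated 2i group 6 counts in 2 cells, and the small groups none. Taking 3 cells as the limit that a count of 0 allows, up to 15% of the 20 small N2B27 and 25% of the 12 small 2i cells could hold a count (exact 95% upper limits 16.8% and 26.5%), against 4.76% and 9.09% in the ungated cells, so a difference was not detectable.

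**Figure D4:**
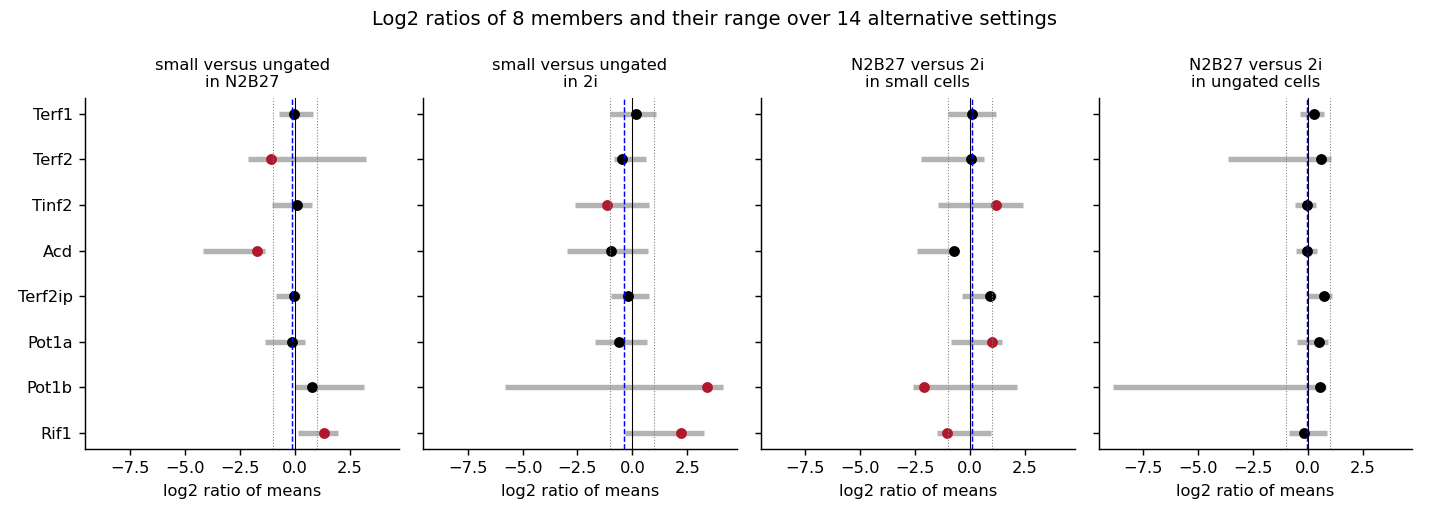
Log2 ratios of mean normalized counts (horizontal axis) of 8 members (rows) in the 4 comparisons; Tert is left out because small cells had no count. Dots are the reported values, red at 2-fold or more, grey bars the range over 14 alternative settings, the dashed line the median of all genes and dotted lines 2-fold. Acd between gates in N2B27, from -4.19 to -1.34, is the member with all settings beyond 2-fold there. Settings that leave out a small 2i cell cannot change ratios without small 2i cells.

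Of the 9 members, 1 was at least 2-fold higher (Rif1) and 2 at least 2-fold lower (Acd and Terf2) in small than in ungated N2B27 cells, where 11.8% of the 8730 genes that reached this minimum average of 20 were higher and 17.1% lower. Among the 6 members that reached the minimum themselves, 1 was higher and 1 lower, since Terf2 averaged 15.7. This contrast chose the set, so the counts are a description. In 2i, 2 were higher in small cells (Rif1 and Pot1b, each by 1 cell) and 1 lower (Tinf2), of which Pot1b was below the minimum, beside 16.3% and 27.8% of all genes. In small cells, 2 were higher in N2B27 than in 2i (Tinf2 and Pot1a) and 2 lower (Rif1 and, below the minimum, Pot1b), beside 22.3% and 19.2%. In ungated cells 0 members passed 2-fold in either direction, beside 7.49% higher and 9.92% lower.

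The members' median log2 ratio is set beside that of all genes past the minimum. With Tert at its bound of 3 counts, it was -0.04 between gates in N2B27, where all genes had -0.12, and -0.27 between gates in 2i, where all genes had -0.36. In small cells, N2B27 over 2i, it was 0.06 over the 8 members with a value, beside 0.09, and in ungated cells 0.34, beside -0.03. Between 2i gates the middle value was the bound of Tert itself. In ungated cells it was the ratio of Tert, which had counts in 3 cells. Over the 6 members that passed the minimum, which leaves out Terf2, Pot1b and Tert, the medians were -0.04, -0.41, 0.49 and 0.12 in the same order. Except between gates in N2B27, the value thus depended on which members were included.

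Among telomerase components and assembly factors, 7 of 9 genes passed the minimum, and 1 was at least 2-fold higher and 0 lower in small N2B27 cells. The genes with the most normalized counts, not corrected for length, were Nhp2 and Dkc1, core proteins of the telomerase RNA particle, which had log2 ratios of 0.08 and 0.59. Naf1, an assembly factor, had 24.3 normalized counts in small and 7.34 in ungated cells, a log2 ratio of 1.60 that was -0.52 in S cells. Of the 3 genes of CST, the complex that hands the telomere end to DNA polymerase alpha, Stn1 had 143 in small and 59.4 in ungated cells (log2 ratio 1.26) and Ctc1 55.2 and 158 (-1.50). The same complex thus had a subunit past 2-fold in each direction, and Ctc1 lost its direction in S cells, at 0.09.

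Of 14 genes that remodel or process telomere ends, 12 passed the minimum, and 3 were higher and 1 lower past 2-fold in small N2B27 cells. Tnks2, a tankyrase that modifies TRF1, had 147 normalized counts in small and 27.3 in ungated cells, and was found in 20 of 20 small cells but 10 of 21 ungated ones. Its log2 ratio was 2.39 in N2B27 and 2.69 in 2i, and between 0.91 and 3.06 in the 14 alternative settings for N2B27. Mre11a, a nuclease of the MRN complex, had 118 and 49.4 (log2 ratio 1.24). Wrn, a RecQ helicase, had 60.5 and 9.75 (2.52), with counts in 6 and 3 cells, 1 of which held 99.2% of the ungated counts. Daxx, the histone chaperone that works with ATRX, had 129 and 303 (-1.23), while Atrx, with the most normalized counts of the list, had 557 and 346 (0.69).

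Of 10 genes that act with RIF1, 9 were matched and passed the minimum, and 1 was higher and 1 lower past 2-fold in small N2B27 cells. Trp53bp1, the gene of 53BP1 that brings RIF1 to broken ends, had 163 normalized counts in small and 66.5 in ungated cells, a log2 ratio of 1.28. With spike-in scaling that ratio was -0.13, where the median of all genes was -0.82. Mad2l2, the REV7 subunit of shieldin downstream of RIF1, had 113 and 255 (-1.17). Ppp1ca and Ppp1cb, catalytic subunits of the phosphatase that RIF1 brings to replication origins, had the most normalized counts and log2 ratios of -0.57 and 0.27. The lists thus held 6 genes higher and 3 lower past 2-fold among 31 past the minimum, beside 11.8% and 17.1% of all genes. The spike-in share differed between these same cells, with medians of 2.45% and 1.14%, and its part in the values of the lists was not tested. Zscan4c and Zfp352 had the most normalized counts of the Zscan4 group, genes tied to telomere lengthening in a rare 2-cell-like state. Yet no kept cell had more than 0.596 CPM of Zscan4c, Zscan4d and Zscan4f together. The 2-cell-like marker set, which includes Zfp352, reached at most 0.75 CPM.

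The genes whose levels most resembled Rif1 over the 41 N2B27 cells were Rps15a-ps7, Huwe1, Rps15a-ps4, Tpd52 and Atrx. Their Spearman correlations were 0.58, 0.56, 0.55, 0.55 and 0.53, beside a 99th percentile of 0.397 over all genes. Over the 34 2i cells they were 0.12, 0.30, 0.16, -0.11 and 0.25. Having been picked as the highest in N2B27 cells, the 5 would show lower values elsewhere by that choice alone. Of them, 3 stayed among the first 5 by Pearson correlation. Rps15a-ps7 and Rps15a-ps4 are named as pseudogenes of Rps15a and may share reads with it and each other, and cells of 1 plate share library preparation and depth. Over the same 41 cells Rif1 had correlations of 0.47 with the spike-in share and -0.45 with the number of genes detected. Their part in these 5 values was not tested.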

How the data were processed

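The deposited values are read counts per Ensembl gene and cell, made by the authors with Trim Galore 0.4.4, GSNAP (mm10) and HTSeq, with 92 ERCC rows and HTSeq summary rows left out of library sizes. Cells were tied to samples through the deposited list of sequencing runs, which names the sample and index pair of each. Cells beyond 3 median absolute deviations in total, genes detected or mitochondrial share were removed per plate (scater 1.30.1). Counts were divided by DESeq2 1.42.0 size factors from 1227 genes, and phases were called by cyclone (scran 1.30.0, seed 1; 3 cells changed phase under 4 further seeds). Log2 ratios are of mean normalized counts plus 1. RPKM used exon lengths and positions of GENCODE M21, a later annotation than the authors', with Pot1 sequences from the same release. Each group is 1 sample of cells that are not replicates, so no test was run, and sorting, plate or library effects cannot be separated from the groups. Doublets were not called, since 1 cell was sorted per well. Ratios were tested on simulated counts. The genes named are the 9 members and, from each list, the 2 highest genes and those past 2-fold between N2B27 gates, plus the 5 nearest to Rif1. The members and lists were chosen with earlier results of these data known. Depth was 1364155 to 4844170 counts per kept cell, and intervals over cells of 1 sample cover neither sorting nor library preparation, while counting intervals cover counting error only, as reads without molecular identifiers are not independent molecules. The effect of 14 alternative settings and of 1 added after seeing the data is given at the end.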

Additional observations from a re-analysis of the deposited data

Results flagged for a closer look

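Stn1 and Wrn, both named above, had opposite signs between gates in the 2 media. The log2 ratio of small over ungated cells was 1.26 in N2B27 and -1.12 in 2i for Stn1, and 2.52 and -2.83 for Wrn. The difference was not tested, since each group is 1 sample, and Wrn had counts in 6 small and 3 ungated N2B27 cells.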

How the results depend on the processing

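Rif1 between N2B27 gates had a log2 ratio of 1.35, which became 0.50 with no filter on cells, 1.49 in CPM, 1.70 with scran and 1.99 with poscounts size factors, 0.14 with spike-in scaling, 1.30 in pooled CPM, 0.32 as a mean of log2 values, 1.49 thinned and 1.46 in S cells, and -1.51 within the spike-in range of the ungated cells (chosen after seeing the data). Spike-in scaling lowered the share of higher calls among all genes past 2-fold from 40.8% to 8.73% in N2B27 and raised it from 37% to 90.3% in 2i, and poscounts gave 66.1% and 63.2%. The members past 2-fold between 2i gates went from 3 to 1 in pooled CPM, thinned counts, S cells and the spike-in range. Between media they went from 4 to 2 in small cells without the highest spike-in cell or each gene's highest cell, and from 0 in ungated cells to 1 with no filter or a pseudocount of 0.1 and 2 with poscounts or S cells. A minimum of 5 raised the members past it to 8.

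Of the 25 member ratios under 2-fold, 20 changed sign in at least 1 of the 14 settings, 64 of 350 values in all. Among them was Acd between 2i gates (-0.99 to 0.73 with spike-in scaling), so the signs of these ratios are not stable. Some settings also shifted all genes. Between 2i gates the median of all genes went from -0.36 to 0.78 with spike-in scaling, and Acd relative to it was -0.05. The 350 include settings that leave out a small 2i cell, which cannot change ratios without small 2i cells. The values past 2-fold that changed sign were as follows. For N2B27 gates, Terf2 (-1.06) became 0.11 as a mean of log2 values and 3.23 in S cells, where 0 of 4 ungated cells had a count. Naf1 (1.60) became -0.16 and -0.52 in the same settings. In S cells, Ctc1 became 0.09 and Wrn -0.89. Trp53bp1 became -0.13 with spike-in scaling, where the median of all genes was -0.82. For 2i gates, Rif1 became -0.32 in S cells and -0.23 within the spike-in range, and Pot1b -5.80 with no filter and -1.12 within the range. Tinf2 became 0.76 with spike-in scaling, where the median of all genes was 0.78. For small cells between media, Rif1 (-1.04) became 0.92 without the highest spike-in cell, 0.35 in CPM and thinned, 0.05 with scran, 0.31 in pooled CPM, 0.28 as a mean of log2 values, 0.78 without the highest cells and 0.93 in S cells. There Tinf2 became -1.47 and Pot1a -0.87 with spike-in scaling, where the median of all genes was -1.56. Relative to that median Tinf2 was 0.09 and Pot1a 0.69. Pot1a became -0.14 as a mean of log2 values, where all genes had -0.18, and -0.31 in S cells. Pot1b became 2.13 in S cells. The cause was not tested. Terf1 between N2B27 gates stayed under 2-fold in all 14 settings, from -0.73 to 0.85, though those that leave out a small 2i cell could not change it. No paired analysis was possible because each group is 1 sample.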
